A study of Rattus norvegicus with 6 samples.

Results

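The miR-150 and miR-342 hairpins give 4 mature microRNAs, rno-miR-150-5p, rno-miR-150-3p, rno-miR-342-3p and rno-miR-342-5p, which were taken by name from the 758 rat microRNAs of an Agilent miRNA microarray. All 4 were on the array. Plasma of untreated male Sprague-Dawley rats aged 10 weeks was measured, with blood of each rat drawn from the abdominal aorta (arterial) and from the postcava, the vein that returns blood from the lower body (venous). There were 3 rats and thus 3 arterial and 3 venous samples, 1 array each. The replicate number in the sample labels was taken as the number of the rat. The EDTA plasma was spun at 1600 g and 16000 g and passed through a 0.22 μm filter, steps that deplete cells and platelets, before the RNA was extracted.

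MicroRNAs in plasma are released by blood cells, vessel walls and organs and are carried in vesicles or bound to protein. miR-150 is known for its high level in mature B and T lymphocytes, where it represses the transcription factor Myb. miR-342 lies in the gene Evl and is likewise abundant in lymphocytes and other blood cells. In each hairpin the 5p and 3p arms pair with each other, and as a rule 1 arm is kept in the silencing complex while the other is degraded. In plasma the number of releasing cells and the amount released per cell cannot be told apart, and the cells from which these microRNAs came were not tested.

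The arms of the miR-342 hairpin are shown because 1 of them was detected in every sample and the other in none. The capitals mark the seed, bases 2 to 8, by which a microRNA recognises its targets (RefSeq, GRCr8).
rno-miR-342-3p: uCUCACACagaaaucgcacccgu
rno-miR-342-5p: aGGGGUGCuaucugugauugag
Mir342 hairpin: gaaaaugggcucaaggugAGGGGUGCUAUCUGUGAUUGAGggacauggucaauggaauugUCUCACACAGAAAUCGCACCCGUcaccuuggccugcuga
In the hairpin the capitals mark the 5p arm (bases 19 to 40) and the 3p arm (bases 61 to 83), which 20 bases separate. The hairpin lies at chr6:133329655-133329753 on the plus strand of GRCr8, inside the span of Evl, which encodes an actin regulator, and of a long non-coding RNA. Folded with RNAfold, 17 of the 23 bases of the 3p arm paired with bases of the 5p arm. Neither seed occurred in another of the 693 rat mature sequences in the RefSeq table, which cover 685 of the 758 microRNAs on the array. The GC content was 52.2% in the 3p arm and 50% in the 5p arm, against a median of 50% over the 114 microRNAs with a sequence that were detected on every array.

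Each member is covered by 16 spots on an array, with 2 probes of 8 spots for rno-miR-150-5p, rno-miR-150-3p and rno-miR-342-3p and 4 probes of 4 spots for rno-miR-342-5p. Feature Extraction called rno-miR-150-5p, rno-miR-150-3p and rno-miR-342-3p detected on all 6 arrays, with all 96 spot values of each well above background and none saturated. It called rno-miR-342-5p detected on no array. Over the series 126 microRNAs were detected on every array and 557 on none. The arrays differed in brightness, since the median background-subtracted intensity of those 126 lay between 17.2 and 52.9. Rats 1 and 2 share a slide and rat 3 has its own, with both vessels of a rat always together, so that rat 3 and its slide cannot be told apart.

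The main arm of miR-342 thus stood clear of background while its partner did not. The background-subtracted intensity of rno-miR-342-3p was 78.4, 60.1 and 89.6 in the arterial samples of rats 1, 2 and 3, against 54.3, 97.9 and 60.9 in the venous samples. On this scale the arterial sample was brighter in rats 1 and 3 and the venous sample in rat 2, the same order in each rat as for the median of all detected microRNAs. The spots of a probe agreed closely, with a median coefficient of variation of 5.88% (range 2.15 to 10.4% over 12 combinations of probe and array). For rno-miR-342-5p the average lay between -1.44 and 0.0333, 63 of the 96 spot values were negative, and 1 spot was well above background. That spot, at 22.3, was flagged as an outlier and left out, and the highest kept spot was at 4.11. In the authors' quantile-normalized table, from which background was not subtracted, rno-miR-342-5p had intensities of 38.4 to 41.9, where the medians of the columns were 38.5 to 42.3. No fold change is given for this arm because neither plasma type was above background.

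**Figure D1:**
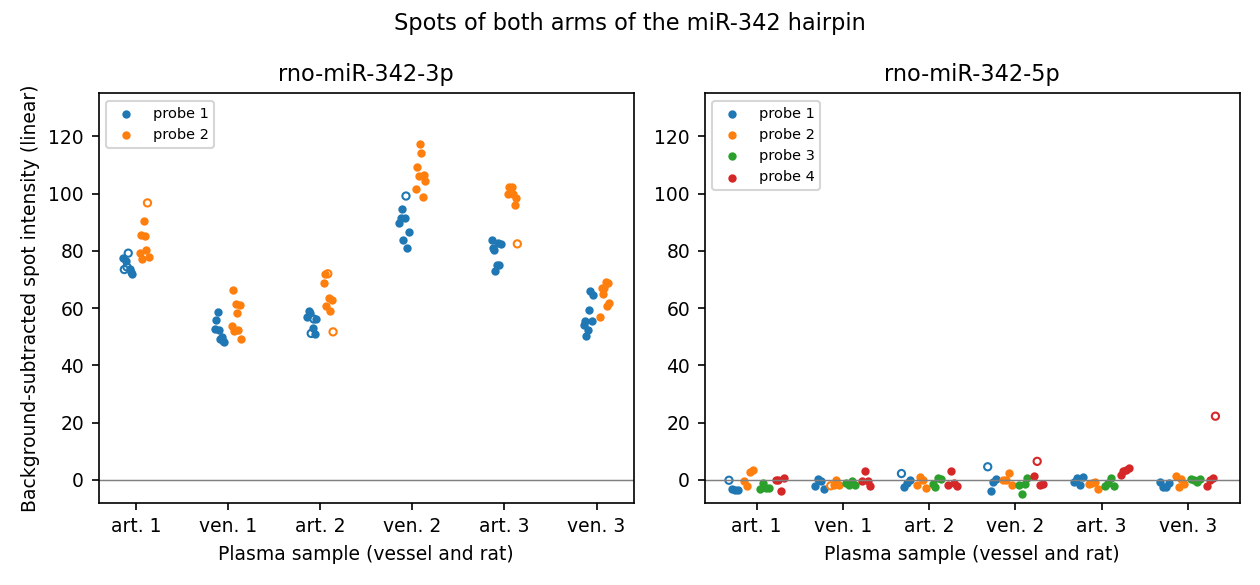
Background-subtracted intensity (linear scale) of every spot of rno-miR-342-3p (left) and rno-miR-342-5p (right) in the arterial (art.) and venous (ven.) plasma of rats 1 to 3. Colours mark the probes and open circles the spots left out as outliers. The spots of the 3p arm lie between 48.04 and 117.5 on all arrays, and the kept spots of the 5p arm do not exceed 4.11.

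For the comparison between plasma types the arrays were quantile normalized, which sets the value of a microRNA by its rank on its array, and the log2 was taken. rno-miR-342-3p was selected on its higher normalized intensity in venous plasma and the other members were chosen by name beside it, so the arterial and venous values of the members are a description, without a test. rno-miR-342-3p and rno-miR-150-5p were lower in the arterial than in the venous plasma of all 3 rats, and rno-miR-150-3p was not. Among the 126 microRNAs detected on every array, 13 (10.3%) were lower in the arterial plasma of all rats and 12 (9.52%) were higher.

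The normalized log2 intensity of rno-miR-342-3p was 6.08, 5.57 and 6.69 in the arterial samples of rats 1, 2 and 3, against 6.41, 5.996 and 7.18 in the venous samples. Venous exceeded arterial plasma in each rat, while the groups overlapped across rats because rat 3 was highest and rat 2 lowest in both vessels. The means were 6.11 ± 0.56 (SD, n = 3) for arterial samples and 6.53 ± 0.60 (SD, n = 3) for venous samples. The log2 difference, arterial minus venous, was -0.33, -0.42 and -0.49 in rats 1, 2 and 3, with a mean of -0.41 (standard error 0.0463), or 1.33-fold more in venous plasma. Without rat 1, 2 or 3 the mean was -0.46, -0.41 and -0.38, whose sign follows from the 3 rat values. Without normalization between arrays the mean turned to 0.13 against a median shift of 0.40 of the detected microRNAs toward arterial plasma. In the authors' table the size was smaller, at -0.12.

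rno-miR-150-5p, the lymphocyte arm for which the hairpin is best known, gave background-subtracted intensities of 329.4, 249.5 and 337.9 in the arterial samples of rats 1, 2 and 3, against 231.3, 451.4 and 246.3 in the venous samples. Its normalized log2 intensity was 8.01, 7.82 and 8.47 in arterial and 8.23, 8.23 and 9.05 in venous plasma. The venous values of rats 1 and 2 are identical because the microRNA held the same rank on both arrays, the ninth brightest of those detected. The means were 8.10 ± 0.33 (SD, n = 3) for arterial samples and 8.50 ± 0.48 (SD, n = 3) for venous samples. The log2 difference was -0.22, -0.40 and -0.58 in rats 1, 2 and 3, with a mean of -0.40 (standard error 0.104), or 1.32-fold more in venous plasma. Rat 3 was highest in both vessels, and its arterial value exceeded the venous values of rats 1 and 2. Without rat 1, 2 or 3 the difference was -0.49, -0.40 and -0.31. Without normalization between arrays it was 0.037, again against the median shift of 0.40. In the authors' table the size was larger, at -0.56.

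rno-miR-150-3p, the other arm of that hairpin, had background-subtracted intensities of 110.8, 40.1 and 46.0 in the arterial samples of rats 1, 2 and 3, against 46.1, 63.1 and 28.7 in the venous samples. Its normalized log2 intensity was 6.46, 4.98 and 5.68 in arterial and 5.97, 5.37 and 5.85 in venous plasma. Arterial plasma of rat 1 was the highest of the 6 samples and arterial plasma of rat 2 the lowest, so that the arterial range enclosed the venous one. The log2 difference was 0.49 in rat 1, -0.39 in rat 2 and -0.17 in rat 3, with a mean of -0.02 (standard error 0.263). The rats thus went in opposite directions, and the mean was smaller than its error.

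**Figure D2:**
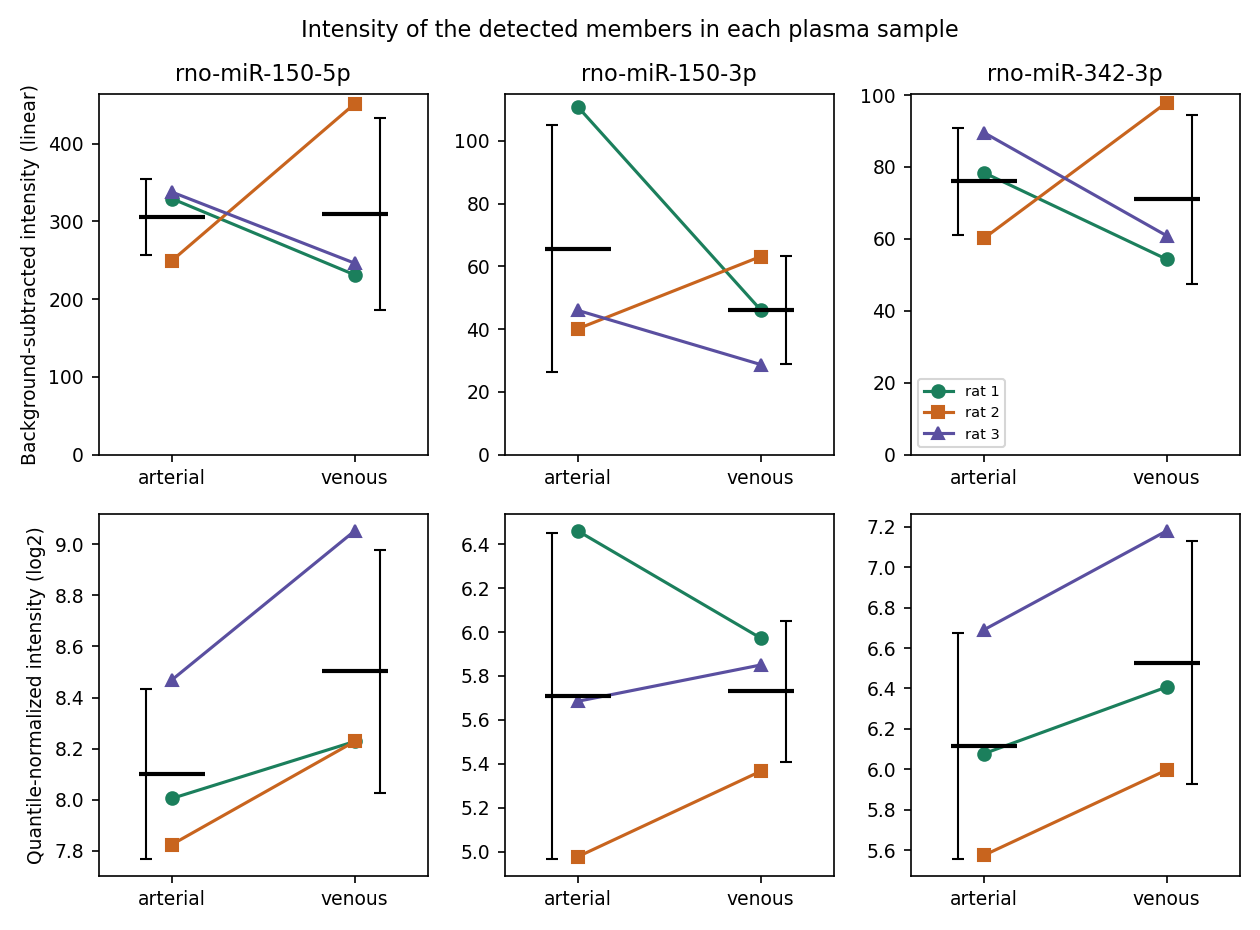
Background-subtracted intensity on a linear axis (top) and quantile-normalized log2 intensity (bottom) of the 3 detected members in arterial and venous plasma. Lines join the samples of 1 rat, black bars are means and error bars SD (n = 3), and the venous points of rats 1 and 2 coincide at 8.23 for rno-miR-150-5p. After normalization all lines rise toward venous plasma for rno-miR-150-5p and rno-miR-342-3p, which they do not before it, and the line of rat 1 falls for rno-miR-150-3p.

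When the quantile normalization was run over probes instead of microRNAs, a choice made after seeing the data, the directions stayed but the sizes moved, to a mean of -0.26 for rno-miR-342-3p and of -0.62 for rno-miR-150-5p. The probes of rno-miR-342-3p had mean log2 differences of -0.27 (standard error 0.067) and -0.24 (standard error 0.074), and those of rno-miR-150-5p of -0.60 (standard error 0.096) and -0.65 (standard error 0.158). All 4 probes were lower in the arterial plasma of all 3 rats. The probes of rno-miR-150-3p had means of 0.01 and 0.00, and both were higher in the arterial plasma of rat 1 and lower in that of rats 2 and 3. Probes of 1 microRNA bind the same RNA of the same sample and are not replicates of plasma type. On the scale of a simple division by the median of the detected microRNAs of each array, both main arms were again below 0 in each rat. The mean difference was -0.26 (standard error 0.0557) for rno-miR-342-3p and -0.35 (standard error 0.0937) for rno-miR-150-5p. When the 75th percentile of all microRNAs set the scale instead, both were lower in arterial plasma in only 2 of 3 rats.

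Ratios of members within an array do not depend on a common scaling factor of that array. The ratio itself carries no level, since probes differ in brightness, but its change between arrays does. The log2 ratio of rno-miR-342-3p to rno-miR-150-5p, from background-subtracted intensities, was -2.07, -2.05 and -1.92 in the arterial samples of rats 1, 2 and 3, against -2.09, -2.20 and -2.02 in the venous samples. It varied by 0.29 over the 6 arrays, and arterial minus venous it was 0.02, 0.15 and 0.10 in the 3 rats, with a mean of 0.09 (standard error 0.0385). The log2 ratio of the 2 arms of miR-150, 5p to 3p, was 1.57, 2.64 and 2.88 in arterial and 2.33, 2.84 and 3.101 in venous plasma. It varied by 1.53, and arterial minus venous it was -0.75, -0.20 and -0.22 in rats 1, 2 and 3. The arms of the 1 hairpin therefore changed unequally across the arrays, most of all in rat 1, whereas the ratio of the main arms of the 2 hairpins varied less on this scale. The authors' table differs in background, spots used and normalization. There the arterial minus venous change in the ratio of rno-miR-342-3p to rno-miR-150-5p was 0.44. With quantile normalization over probes the differences of the main arms also lay apart, as given above. The change in the ratio of rno-miR-342-3p to rno-miR-150-5p was smaller with the brightest probe, at 0.05. With normexp background correction of the median spot intensity it was 0.04. Which of these steps sets the size was not tested.

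Across the 6 arrays the normalized log2 intensities of rno-miR-150-5p and rno-miR-342-3p had a Pearson correlation of 0.95, the highest that either of them had with any microRNA detected on every array. The 6 arrays come from 3 rats, and the plasma types share these rats, so that the correlation is a description without a p-value. rno-miR-150-3p had a correlation of 0.21 with rno-miR-150-5p and of 0.42 with rno-miR-342-3p. After rno-miR-150-5p, rno-miR-342-3p was most like rno-miR-92a-3p (0.94), a product of the miR-17-92 cluster, rno-miR-3573-3p (0.90) and rno-miR-30d-5p (0.86). The 122 candidates had a median correlation of 0.00 with it. The 3 most like rno-miR-150-5p were the same microRNAs in another order, rno-miR-30d-5p (0.91), rno-miR-92a-3p (0.89) and rno-miR-3573-3p (0.87). rno-miR-150-3p was most like rno-miR-3593-3p (0.95), rno-miR-1249 (0.94) and rno-miR-296-5p (0.91), none of which was among those of the other arm.

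**Figure D3:**
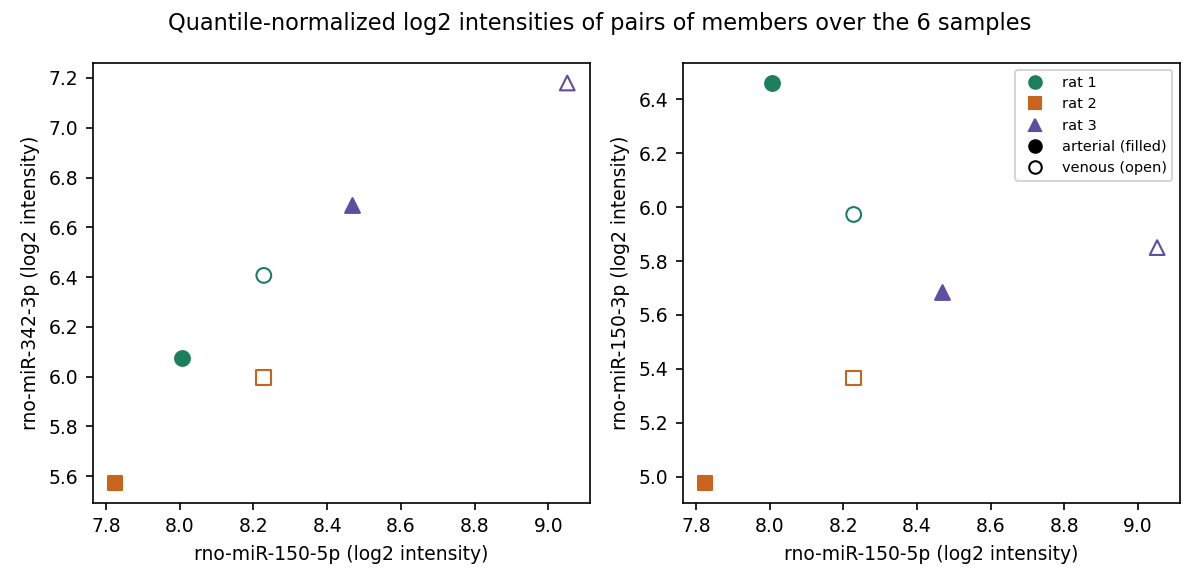
Quantile-normalized log2 intensity of rno-miR-342-3p (left) and rno-miR-150-3p (right) against that of rno-miR-150-5p in the 6 samples, with colour and shape for the rat, filled symbols for arterial and open symbols for venous plasma. On the left the samples rise together from arterial plasma of rat 2 to venous plasma of rat 3 (Pearson 0.95), and on the right they do not (Pearson 0.21).

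After normalization the members also differed between rats. Averaged over both vessels, rno-miR-342-3p had a log2 intensity of 6.24 in rat 1, 5.78 in rat 2 and 6.93 in rat 3, a range of 1.15. A range over 3 rats is not the same measure as the mean paired difference of -0.41 between vessels. The range was 0.73 for rno-miR-150-5p, with rat 3 highest, and 1.05 for rno-miR-150-3p, with rat 1 highest. The median range was 0.71 for all 126 detected microRNAs. Before normalization the highest value of rno-miR-342-3p and of rno-miR-150-5p was in venous plasma of rat 2 (97.9 and 451.4). The order of the rats for these 2 thus depends on the scaling between arrays. In limma's F test on the rat terms none of the 758 microRNAs passed an adjusted p of 0.05 (0%), although 58 reached an unadjusted p of 0.05. Of the 758, 378 were at the floor of 1 on every array and could not be called. In a fit restricted to the 126 detected microRNAs, limma called 3 (2.38%) and 46 (36.5%) reached an unadjusted p of 0.05. Among the 201 microRNAs detected on at least 1 array, limma called 24 at an adjusted p of 0.05. This F test is scaled by the same residual spread as the contrast between vessels on which rno-miR-342-3p was selected, so the rat values of the members are a description and no p is given for them.

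For the difference between plasma types the same limma fit over 758 microRNAs, with rat as block, called 2 microRNAs higher in venous (0.264%) and 4 higher in arterial plasma (0.528%) at the unadjusted cutoff of 0.025 of the study's methods. None passed an adjusted p of 0.05 in limma or in the methods' t-test, although 12 reached an unadjusted p of 0.05 in limma. Because that contrast was known when the members were chosen, no call is given for them.

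Other microRNAs known from leukocytes are given beside the members, without a test of the difference between them. The list held rno-miR-223-3p of myeloid cells and platelets, rno-miR-142-3p and rno-miR-142-5p of all blood lineages, rno-miR-155-5p of activated lymphocytes, rno-miR-146a-5p, which restrains inflammatory signalling, and rno-miR-181a-5p of developing T cells. All 6 were detected on at least 1 array and 4 on every array. None was past the cutoff, where 0.264% of all 758 were higher in venous and 0.528% higher in arterial plasma. In the 4 detected on every array, arterial minus venous was below 0 in rat 1 and above 0 in rat 3, for example -0.49, -0.92 and 0.86 in rats 1, 2 and 3 for rno-miR-142-3p and -0.60, 0.00 and 0.69 for rno-miR-223-3p. These signs were not particular to the leukocyte list. Of the lists below, rno-miR-144-3p, rno-miR-16-5p, rno-miR-126a-3p, rno-miR-199a-3p, rno-miR-122-5p and rno-miR-192-5p had them too, and rno-miR-451-5p and rno-miR-486 did not. None of the 4 leukocyte microRNAs was lower in the arterial plasma of all rats, where 10.3% of all 126 were. Of the remaining ones, rno-miR-181a-5p, detected on 5 arrays, differed by -0.18, -0.63 and 0.03, and rno-miR-155-5p, detected on 4, by 0.46, -0.34 and -0.20. The median difference of the 4 was 0.01, near the median of 0.00 over all 126. The log2 of the summed intensity of the list was 8.16 to 9.38 in arterial and 8.66 to 8.77 in venous plasma. This sum mostly follows its brightest microRNA, rno-miR-223-3p, which was at 7.76 to 9.05 on the arrays.

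Markers of the other cells whose RNA plasma may hold are given beside these values, and their part in the differences was not tested. Of the 5 erythrocyte microRNAs 4 were detected on every array, and the summed level of the list was 10.99 to 11.14 on the log2 scale in arterial and 10.73 to 11.22 in venous plasma. rno-miR-486, abundant in red cells, differed by a mean of -0.57 on the log2 scale, arterial minus venous, with each rat below 0 (adjusted p = 1 from limma). rno-miR-451-5p, the most red-cell specific of the list, was at 10.49 on 5 arrays and at 9.71 in the venous plasma of rat 3. It weighs heavily in the erythrocyte sum, and the equal values are fixed by its rank after quantile normalization, so that they do not show an equal content. The summed level of the platelet list was 8.10 to 9.20 in arterial and 8.53 to 8.66 in venous plasma. Of its 4 microRNAs 3 were detected on every array. The platelet sum also mostly follows rno-miR-223-3p, so that it is not a reading separate from the leukocyte sum. Of the liver list 2 of 3 were detected on every array, and its summed level was 6.21 to 9.19 in arterial and 6.56 to 8.06 in venous plasma. None of the 3 microRNAs of the muscle list was detected on every array, and rno-miR-1-3p and rno-miR-133a-3p were detected on none. The summed level of that list was 1.58 to 3.17 in arterial and 2.58 to 2.88 in venous plasma, where 1.58 stands for all 3 at the floor. The muscle microRNA rno-miR-133b-3p, which is not on the list and was noticed after its values were seen, was detected on all 6 arrays. No microRNA of these lists was past the cutoff, which few of all 758 passed (0.264% higher in venous and 0.528% higher in arterial plasma). Of the 12 microRNAs of all lists detected on every array 1, rno-miR-486, was lower in the arterial plasma of all 3 rats. That share is near the 10.3% of all detected microRNAs.

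**Figure D4:**
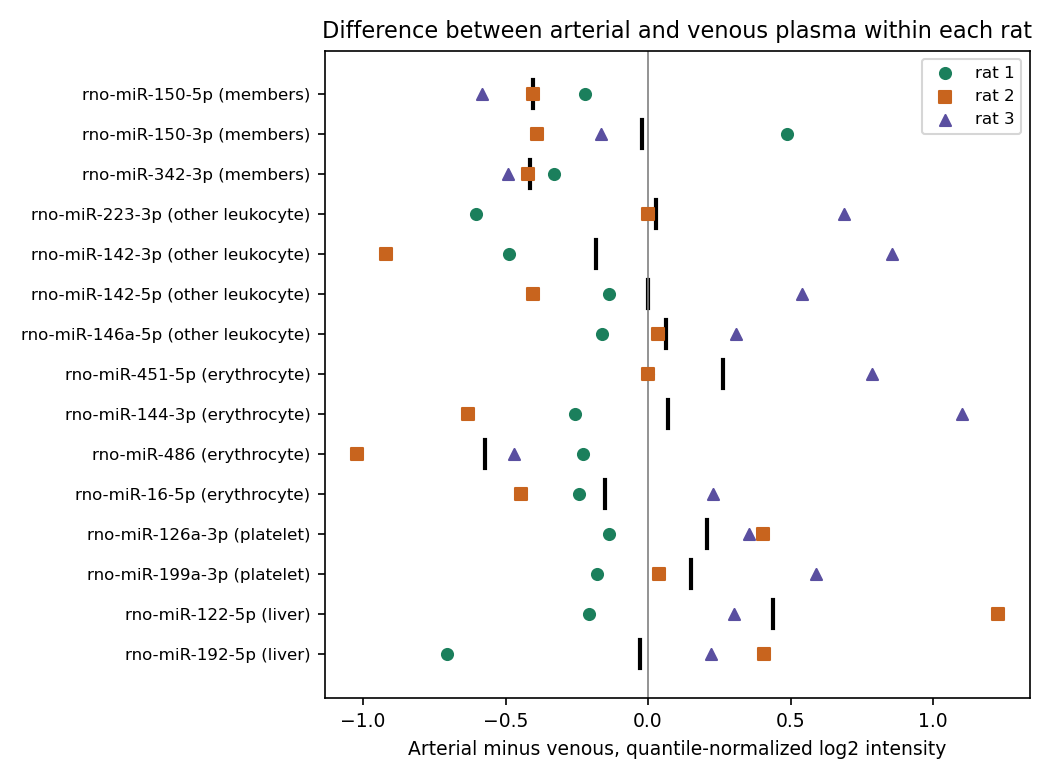
Difference between arterial and venous plasma (quantile-normalized log2 intensity, x axis) in each rat for the 3 detected members and the 12 microRNAs of the leukocyte, erythrocyte, platelet and liver lists detected on every array, with the list in brackets (rno-miR-223-3p is on the leukocyte and platelet lists). Symbols mark rats 1 to 3 and black bars the mean. For rno-miR-150-5p and rno-miR-342-3p all rats lie below 0, between -0.58 and -0.22, whereas rno-miR-142-3p runs from -0.92 to 0.86, and without normalization between arrays the means of both members turn above 0.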

How the data were processed

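Plasma RNA was labelled with Cy3 and hybridized to single-colour Agilent Rat miRNA arrays. The authors deposited the intensity of each spot from Feature Extraction (10.7.3.1 in the array headers, 11.0.1.1 in the submitters' processing notes), background-subtracted and without scaling between arrays, and a further table of intensities, quantile normalized in GeneSpring. Control spots and outlier spots (8.72 to 10.4% of an array) were left out, spots and then probes were averaged, the 758 microRNAs were quantile normalized, and log2 was taken after a floor of 1. Samples were paired by the replicate number of their labels, taken as the rat because the study matched arterial and venous samples within rats. Deviations of the paired samples from their group means correlated at 0.64 to 0.80 over 126 microRNAs. limma 3.58.1 (R 4.3.3) was fitted with rat as block, two-sided, with Benjamini-Hochberg adjustment over all microRNAs. A run on simulated data was checked in the fit of the 126 detected microRNAs only. Its planted differences were larger than those of the members, so it does not cover differences of their size. Sequences were folded with RNAfold 2.7.2. The array design uses rn4, so that RefSeq positions on GRCr8 are given for sequences only.

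The members and lists were chosen with earlier results of these data known. Named microRNAs are the members, their 3 most like microRNAs and the listed cell type microRNAs, with rno-miR-133b-3p added after its values were seen. Alternatives changed the normalization, intensity, probe and spot summary, floor, filter, test, block and rats. Each sample had 1 array, without repeat arrays of a sample, and 3 rats limit the precision. No column of values was left unmapped.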

Additional observations from a re-analysis of the deposited data

How the results depend on the processing

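Quantile normalization over probes was added after seeing the data. The difference of rno-miR-150-5p was 0.037 on unnormalized arrays, -0.56 in the authors' table and -0.62 over probes. That of rno-miR-342-3p was -0.30 and -0.29 with the 75th percentile of detected or all microRNAs, -0.12 in the authors' table, -0.25 with normexp, -0.26 over probes and 0.13 without normalization. With the 75th percentile of all microRNAs, both were lower in arterial plasma in 2 of 3 rats. That of rno-miR-150-3p ranged from -0.28 to 0.43, within its spread between rats. Without 1 rat they ranged from -0.49 to -0.31, from -0.46 to -0.38 and from -0.28 to 0.16. Floors, detection filters, the test and the block leave these means as they are. The cause of the shifts was not tested. The ratio of the 2 arms of miR-150 changed by -0.55 to -0.21. That of rno-miR-342-3p to rno-miR-150-5p changed by 0.04 to 0.44.

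The 4 arterial and 2 venous calls became 4 and 1 without normalization, 3 and 4 with the 75th percentile of detected and 2 and 3 with that of all microRNAs, 1 and 2 with the total gene signal, 8 and 4 in the authors' table, 8 and 5 with normexp and over probes, 8 and 3 with the brightest probe, 5 and 4 with flagged spots kept, 6 and 4 with the median of spots, 10 and 3 with a floor of 0.1, 0 and 2 with a floor of 5, 3 and 0 and 6 and 0 with microRNAs detected on all arrays or on at least 1, 2 and 2 with the methods' t-test and 6 and 2 with an intensity trend. Without the replicate block they were 3 and 2. Without 1 rat they ranged from 8 to 19 and from 9 to 14. At an adjusted p of 0.05 the count was 1 with the 201 microRNAs detected on at least 1 array. Rat differences at an adjusted p of 0.05 numbered 1 with the 75th percentile of all microRNAs, the total gene signal, the brightest probe, flagged spots kept and a floor of 0.1, 3 over probes and with microRNAs detected on all arrays, 14 in the authors' table and 24 with microRNAs detected on at least 1 array.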
